A study of Mus musculus with 15 samples.

Results

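The B lymphocyte lineage genes of the liver were followed from the late fetal stage to the second week after birth in wildtype and Stab1-/- mice. They were taken as the rows of the deposited gene table whose symbol was in a list of 35 symbols, and 34 of these were found among 19464 rows, each with 1 row. The exception, Jchain, is another name of Igj, which was in the table. The 34 genes comprised 11 genes of B cell progenitors, 9 genes of B cell receptor signalling and its control, 8 genes of mature B cells, and 6 genes of plasma cells and of the BAFF (B cell activating factor) system. RNA-seq had been performed on total RNA from whole livers of 4 wildtype and 3 Stab1-/- embryos at E17.5, and from 2-week-old animals, 4 of each genotype, all on a mixed C57BL/6N;129SvJ background. The knockout is not restricted to a cell type. Its target, Stab1, encodes Clever-1 (stabilin-1), a membrane receptor of macrophages and of sinusoidal and lymphatic endothelium that takes up ligands from the circulation and serves in cell trafficking. No library came from immunized mice or from sorted B cells.

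B cells arise from haematopoietic progenitors in the fetal liver before birth, and this production moves to the bone marrow around birth. Progenitors cut and rejoin their immunoglobulin genes with the RAG1 and RAG2 proteins, and pair the new heavy chain with a surrogate light chain built from the VpreB proteins and lambda 5 (Igll1). Cells that pass this step display an immunoglobulin with the signalling chains CD79a and CD79b, acquire CD20 (Ms4a1), CD21 (Cr2) and CD23 (Fcer2a) as they mature, and can end as antibody-secreting plasma cells under the control of Blimp-1 (Prdm1) and IRF4.

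In wildtype livers, all progenitor genes except Dntt were at a higher mean level at E17.5 than at 2 weeks, whereas Dntt and CD20 were more abundant at 2 weeks. Between the genotypes, 26 of the 34 genes had enough reads for the test at E17.5 and 16 at 2 weeks, and none passed it. At 2 weeks only 1 of the 11 progenitor genes was tested. The mean level was lower in Stab1-/- livers for 25 of the 34 genes at each stage, against 59.8% of all genes at E17.5 and 39.7% at 2 weeks. As the genes were read from the same livers, they are not independent of each other. At E17.5 the summed progenitor genes were low in Stab1-/- replicates 1 and 3 (36.1 and 28.9 RPKM) and not in replicate 2 (51.3 RPKM). At 2 weeks many of these means rest on few reads. A high level of Prdm1 in 1 Stab1-/- E17.5 library coincided with a high level of intestinal genes in that library.

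Vpreb1 and Igll1 had the highest mean RPKM of the progenitor genes in wildtype livers at E17.5. The 250 bases before a listed transcription start of the surrogate light chain genes Vpreb1, Vpreb2 and Igll1 and of the receptor chain gene Cd79a are shown, from RefSeq on the mouse build GRCm38.p6. The windows of Vpreb1, Igll1 and Cd79a adjoin the listed span of the gene. That of Vpreb2 lies inside the span of its gene (chr16:17979445-17981274), so it does not precede the outermost start. The sequences read 5′ to 3′ on the strand of the gene. In the Igll1 sequence capitals mark the only match to the EBF1 motif CCCNNGGG on either strand, leaving its 3 E-boxes unmarked, and in the others they mark each match to the E-box CANNTG.
Vpreb1 (chr16:16869256-16869505, minus strand): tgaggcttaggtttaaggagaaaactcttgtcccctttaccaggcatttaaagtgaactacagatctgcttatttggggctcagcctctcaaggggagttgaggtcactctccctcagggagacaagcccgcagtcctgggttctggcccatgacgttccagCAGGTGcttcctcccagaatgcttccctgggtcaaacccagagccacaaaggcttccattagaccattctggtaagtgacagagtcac
Vpreb2 (chr16:17980315-17980564, plus strand): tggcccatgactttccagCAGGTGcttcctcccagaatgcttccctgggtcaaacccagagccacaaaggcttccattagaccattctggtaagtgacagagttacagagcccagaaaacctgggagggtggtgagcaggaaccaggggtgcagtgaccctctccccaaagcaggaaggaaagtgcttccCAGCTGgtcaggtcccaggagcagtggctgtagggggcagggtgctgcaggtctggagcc
Igll1 (chr16:16863986-16864235, minus strand): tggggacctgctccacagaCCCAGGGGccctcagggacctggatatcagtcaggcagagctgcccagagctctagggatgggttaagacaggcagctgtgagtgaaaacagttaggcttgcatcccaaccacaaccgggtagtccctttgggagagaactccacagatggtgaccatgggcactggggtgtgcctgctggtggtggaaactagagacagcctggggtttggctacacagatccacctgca
Cd79a (chr7:24897247-24897496, plus strand): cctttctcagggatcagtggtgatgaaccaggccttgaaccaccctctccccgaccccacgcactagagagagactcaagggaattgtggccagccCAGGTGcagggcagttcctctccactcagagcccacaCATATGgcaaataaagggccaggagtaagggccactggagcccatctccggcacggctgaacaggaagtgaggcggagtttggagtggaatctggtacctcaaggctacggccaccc

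Promoter sequences were on hand for 30 of the 34 genes. These 30 genes have 37 promoter windows. The EBF1 motif was present in 4 of the 37 windows (Bank1, Cd22, Igll1 and Spib), against 11.8% of all 32851 promoter windows of this length. The E-box was present in 31 of the 37 windows and in 66.2% of all windows. The E-box CAGGTG stood in Vpreb1, Vpreb2 and Cd79a, and on the opposite strand in Igll1, where it reads CACCTG. The transcripts of Vpreb1 and Vpreb2 were 97.5% identical over 686 aligned bases, with 32.3% of the 49-base words of Vpreb2 also present in Vpreb1. Only uniquely mapped reads were counted, so reads from stretches that Vpreb1 and Vpreb2 share may be missing from the counts of both. The levels of these genes relative to each other are therefore uncertain.

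The libraries held about 9660000 to 10960000 reads counted on genes. Read numbers of 1 gene are therefore given by library, although between the stages they can differ from the fitted change (as they do for Bach2), and levels were set side by side between genes as RPKM (reads normalised for gene length and library size). Stab1 itself, the targeted gene, was at 17.2 ± 3.17 RPKM (mean ± SD) in wildtype and 4.37 ± 0.817 in Stab1-/- livers at E17.5, and at 9.29 ± 1.54 and 1.09 ± 0.31 at 2 weeks, without overlap at either stage. Differences were tested with the quasi-likelihood test of edgeR over all genes with enough reads, as log2 fold changes ± standard error, and a gene was called at a Benjamini-Hochberg adjusted p under 0.05. Nothing in the labels states which animals shared a litter or a day, so the p-values measure the spread between these livers only.

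**Figure D1:**
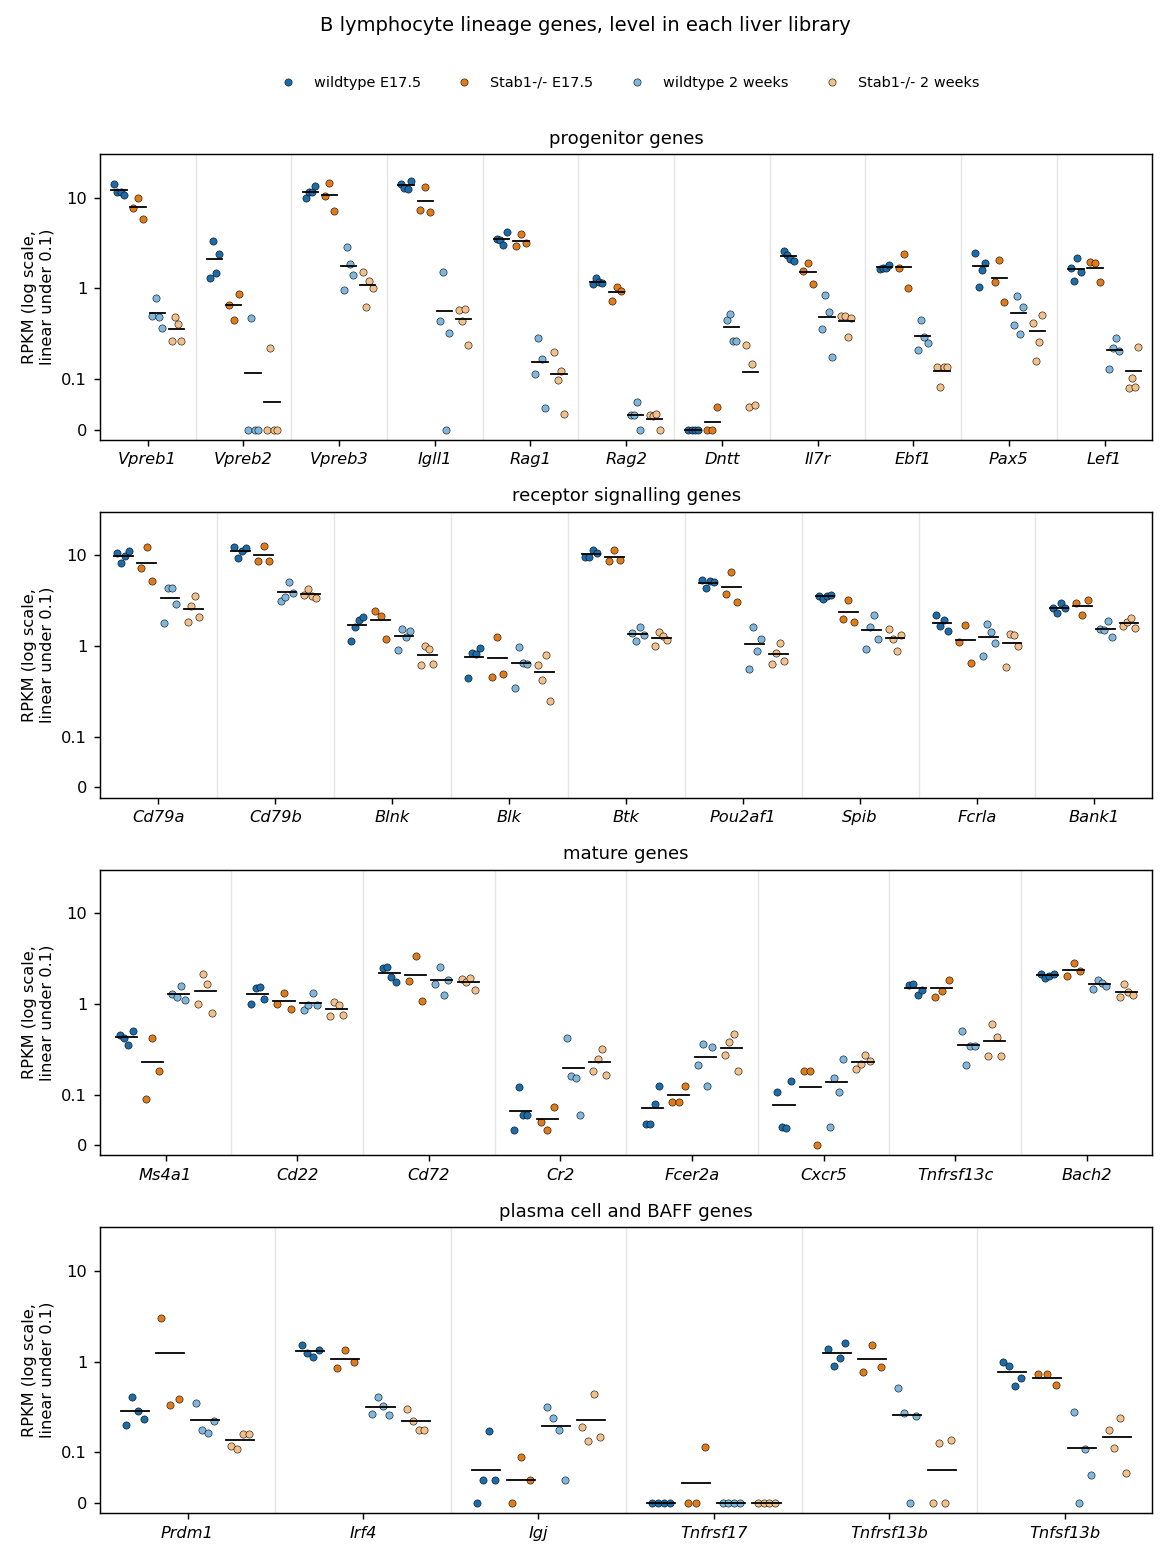
Level of each of the 34 genes in each library, in RPKM on an axis that is logarithmic above 0.1 and linear below it, with 1 point per library, colours for the 4 groups and a line at the mean of the group. The progenitor genes other than Dntt lie highest in both E17.5 groups, and Ms4a1 lies highest in both 2-week groups.

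The comparison of 2-week with E17.5 wildtype livers addressed which stages of the B lineage are represented before and after birth. Of the 34 genes, 25 had enough reads for the test, 17 were lower at 2 weeks and 1, Ms4a1, was higher. These 18 were 72% of the genes tested, against 71.9% of all genes tested (34.9% higher and 37% lower), so that the share called was close to that of all genes while its direction was mostly down. The median log2 fold change was -1.33 over the tested genes and -0.01 over all. By group, 9 of 9 tested progenitor genes and 6 of 9 receptor signalling genes were lower, 1 of 5 mature genes was lower and 1 higher, and 1 of 2 plasma cell and BAFF genes was lower. Without a filter on low reads, all 2-week libraries lay below all E17.5 libraries for 21 of 34 genes (37.5% of all genes with a read) and above them for 3 genes (16.3%).

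Among the progenitor genes, Vpreb1 gave 119, 92, 97 and 89 reads in the 4 wildtype E17.5 livers and 4, 6, 4 and 3 reads at 2 weeks. Igll1 gave 134, 116, 118 and 142 reads at E17.5 and 4, 13, 0 and 3 at 2 weeks. Vpreb3, which is found in the same precursor complexes, gave 64, 72, 75 and 87 reads at E17.5 and 6, 17, 12 and 9 at 2 weeks. Each of the 3 surrogate light chain and related genes was thus several-fold above its 2-week level in every fetal liver, with log2 fold changes of -4.11 ± 0.25 for Vpreb1, -4.24 ± 0.41 for Igll1 and -2.34 ± 0.26 for Vpreb3. Reads covered 78.5 to 84.5% of the Vpreb1 gene model at E17.5 and 17.2 to 37.6% at 2 weeks. Vpreb2, with too few reads for the main test, gave 6, 15, 7 and 11 reads at E17.5 and 2 reads in 1 of the 4 livers at 2 weeks. It was called with DESeq2, without the filter on low reads and in both limma fits.

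The recombinase genes fell as far as Vpreb1 and Igll1 did. Rag1 gave 249, 240, 220 and 300 reads in wildtype livers at E17.5 and 8, 19, 12 and 3 at 2 weeks (log2 fold change -4.17 ± 0.28, adjusted p = 5.89e-08). Rag2 gave 41, 46, 44 and 42 reads at E17.5 and 1, 1, 2 and 0 at 2 weeks (-4.89 ± 0.37). At 2 weeks all 4 wildtype libraries were therefore at or under the floor of 3 reads for Rag2, and its fold depends on a few reads.

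Dntt went the other way. It encodes terminal deoxynucleotidyl transferase, which adds untemplated bases where gene segments are joined and is known to be scarce in fetal progenitors. No read of Dntt was found in any of the 4 wildtype E17.5 livers, whereas 10, 11, 6 and 6 reads were found at 2 weeks. The mean at 2 weeks was at least 2.85-fold higher than the level that 3 reads per library allow at E17.5. Dntt had too few reads for the main test and was called where that filter was not applied, with DESeq2 and in limma fits of RPKM.

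The remaining progenitor genes encode a receptor and transcription factors. Il7r, the receptor for interleukin 7 and also a T cell and innate lymphoid gene, gave 90, 79, 74 and 69 reads at E17.5 and 12, 27, 19 and 6 at 2 weeks (-1.87 ± 0.31). Ebf1, the early B cell factor, gave 40, 40, 42 and 44 reads at E17.5 and 5, 10, 7 and 6 at 2 weeks (-2.15 ± 0.24). Pax5, which commits cells to the B lineage, gave 32, 13, 21 and 25 reads at E17.5 and 5, 10, 4 and 8 at 2 weeks (-1.33 ± 0.37). The 2 stages did not overlap for any of these genes, but the gap was narrow for Pax5. Lef1, a Wnt pathway factor of lymphocyte progenitors, gave 66, 46, 88 and 60 reads at E17.5 and 5, 8, 11 and 8 at 2 weeks (-2.60 ± 0.29), again without overlap.

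Among the receptor signalling genes, Cd79a gave 150, 113, 142 and 161 reads at E17.5 and 25, 57, 62 and 41 at 2 weeks (-1.20 ± 0.24, adjusted p = 0.000603). Its partner Cd79b gave 163, 119, 152 and 161 reads at E17.5 and 41, 42, 67 and 51 at 2 weeks (-1.16 ± 0.18). Both chains of the receptor, which progenitors and mature B cells share, fell less than the surrogate light chain. Btk, the kinase mutated in X-linked agammaglobulinaemia and also used by myeloid cells, gave 260, 256, 320 and 291 reads at E17.5 and 37, 29, 44 and 36 at 2 weeks (-2.54 ± 0.14). Pou2af1, the B cell coactivator OBF-1, gave 147, 117, 146 and 140 reads at E17.5 and 15, 41, 24 and 33 at 2 weeks (-1.87 ± 0.24). Neither gene overlapped between the stages.

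Spib, an Ets factor of B cells and plasmacytoid dendritic cells, gave 107, 97, 110 and 108 reads at E17.5 and 27, 45, 66 and 36 at 2 weeks (-0.87 ± 0.23). Bank1, a scaffold of B cell receptor signalling, gave 91, 79, 107 and 92 reads at E17.5 and 53, 48, 65 and 44 at 2 weeks (-0.41 ± 0.16), a small difference whose adjusted p of 0.0368 did not hold under DESeq2, without the filter on low reads or on leaving out wildtype replicate 1, 2 or 4 at 2 weeks or replicate 1, 3 or 4 at E17.5. The other 3 genes of the group overlapped between the stages and did not pass the test. Blnk, the adaptor downstream of Syk, gave 26, 36, 45 and 47 reads at E17.5 and 20, 32, 28 and 33 at 2 weeks. Blk, a Src family kinase, gave 12, 22, 22 and 25 reads at E17.5 and 9, 24, 17 and 17 at 2 weeks. Fcrla, an intracellular Fc receptor-like protein, gave 41, 30, 37 and 27 reads at E17.5 and 14, 30, 26 and 20 at 2 weeks.

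The mature genes showed no common direction. Ms4a1 gave 10, 9, 8 and 11 reads in wildtype livers at E17.5 and 28, 24, 34 and 24 at 2 weeks, which was a rise (log2 fold change 1.92 ± 0.23, adjusted p = 1e-05) without overlap. Cr2, the complement receptor of follicular and marginal zone cells, gave 2, 8, 4 and 4 reads at E17.5 and 27, 10, 10 and 4 at 2 weeks, with overlap. It had too few reads for the main test. It was called with DESeq2, without the filter on low reads, in 1 fit of all libraries and on leaving out some single libraries, but in neither limma fit. Fcer2a, the low-affinity IgE receptor, gave 1 to 3 reads at E17.5 and 3 to 8 at 2 weeks, and Cxcr5, the chemokine receptor of follicles, gave 1 to 4 and 1 to 7 reads.

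In contrast, Tnfrsf13c, the BAFF receptor, fell from 33, 33, 26 and 29 reads at E17.5 to 10, 4, 7 and 7 at 2 weeks (-1.70 ± 0.26). Cd22, an inhibitory co-receptor, gave 44, 64, 69 and 49 reads at E17.5 and 37, 40, 58 and 42 at 2 weeks. Cd72, another inhibitory co-receptor, gave 40, 40, 33 and 28 reads at E17.5 and 26, 38, 20 and 29 at 2 weeks. Both overlapped between the stages and neither passed the test. Bach2, a repressor of plasma cell differentiation that T cells also express, gave 193, 172, 191 and 194 reads at E17.5 and 130, 153, 154 and 141 at 2 weeks, which did not overlap, but its log2 fold change was 0.03 ± 0.11. This difference between the reads and the fit came from the scaling: relative to the TMM factors used here, scaling by library totals moved the median of all genes to -0.38 in wildtype and -0.24 in Stab1-/- livers, with 31.2% instead of 48.5% of all called genes higher at 2 weeks in wildtype. Under that scaling Bach2 was called as lower, the other 18 calls held, and the uncalled log2 fold changes of Cd22, Cd72, Blk and Prdm1 turned from positive to negative.

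Among the plasma cell and BAFF genes, Irf4 gave 77, 61, 58 and 67 reads at E17.5 and 13, 19, 16 and 13 at 2 weeks (-1.70 ± 0.20). Prdm1 gave 11, 22, 16 and 13 reads at E17.5 and 19, 9, 9 and 12 at 2 weeks (0.06 ± 0.31), with overlap. Tnfrsf13b, the receptor TACI, gave 11, 7, 9 and 13 reads at E17.5 and 4, 2, 0 and 2 at 2 weeks, and Tnfsf13b, which encodes BAFF and is made mainly by myeloid and stromal cells, gave 18, 16, 10 and 12 and then 5, 0, 2 and 1 reads. Both lay lower at 2 weeks in every liver but had too few reads for the main test. They were called with DESeq2, without the filter on low reads, in both limma fits and in 1 fit of all libraries. Igj, the joining chain of secreted IgM and IgA, gave 0 to 4 reads at E17.5 and 1 to 7 at 2 weeks, and Tnfrsf17, the plasma cell receptor BCMA, gave no read in any of the 8 wildtype libraries. Igj thus passed the floor of 3 reads in 3 of the 4 wildtype livers at 2 weeks and in 1 of the 4 at E17.5. The immunoglobulin constant genes were not analysed here.

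**Figure D2:**
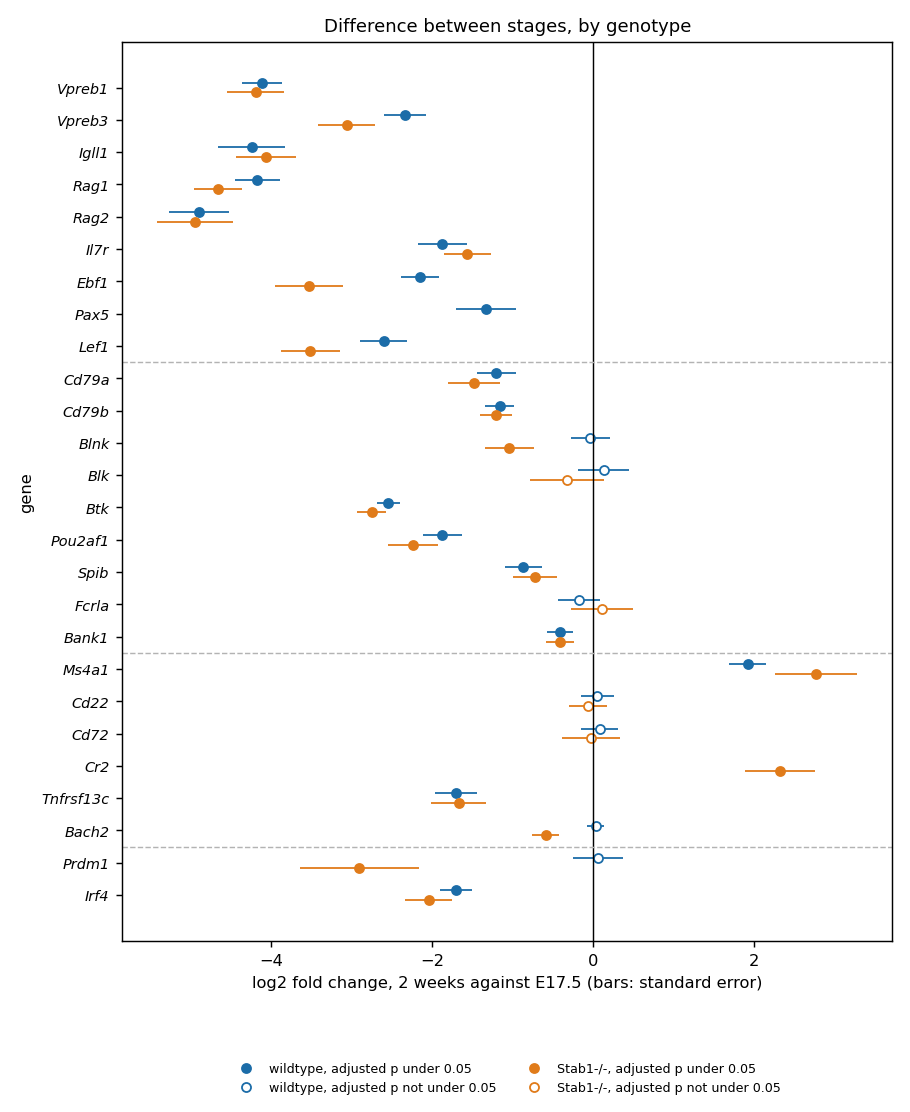
Log2 fold change at 2 weeks against E17.5 for each gene with enough reads, with the standard error as a bar, in wildtype (blue) and Stab1-/- livers (orange). Filled points have an adjusted p under 0.05, dashed lines separate progenitor, receptor signalling, mature, and plasma cell and BAFF genes, and all progenitor points lie left of 0 while Ms4a1 lies right of it.

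Genes of other blood cells did not all change alike over the same interval. All 11 erythroid, all 10 granulocyte and all 10 cell cycle genes listed were lower at 2 weeks in wildtype, and all 8 hepatocyte genes were higher. Of 11 macrophage genes, 3 were higher and 2 lower. The 8 NK cell genes summed to 6.84 to 10.5 RPKM at E17.5 and 5.19 to 8.99 RPKM at 2 weeks. The 6 plasmacytoid dendritic cell genes summed to 22.3 to 43.7 RPKM and then 105 to 121 RPKM, with 1 of 2 tested genes, Bst2, called. The summed level of the progenitor genes went from between 48.5 and 54.6 RPKM to between 3.57 and 8.79 RPKM, that of the receptor signalling genes from between 41.2 and 50.2 to between 11.4 and 19.5, and that of the mature genes from between 7.24 and 8.26 to between 6.41 and 7.41. The 14 T cell genes summed to 3.11 to 5.05 RPKM at E17.5 and 5.56 to 7.18 RPKM at 2 weeks. The part of these cell types in the B lineage values was not tested, and in whole liver fewer cells of a type and less RNA per cell cannot be told apart.

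**Figure D3:**
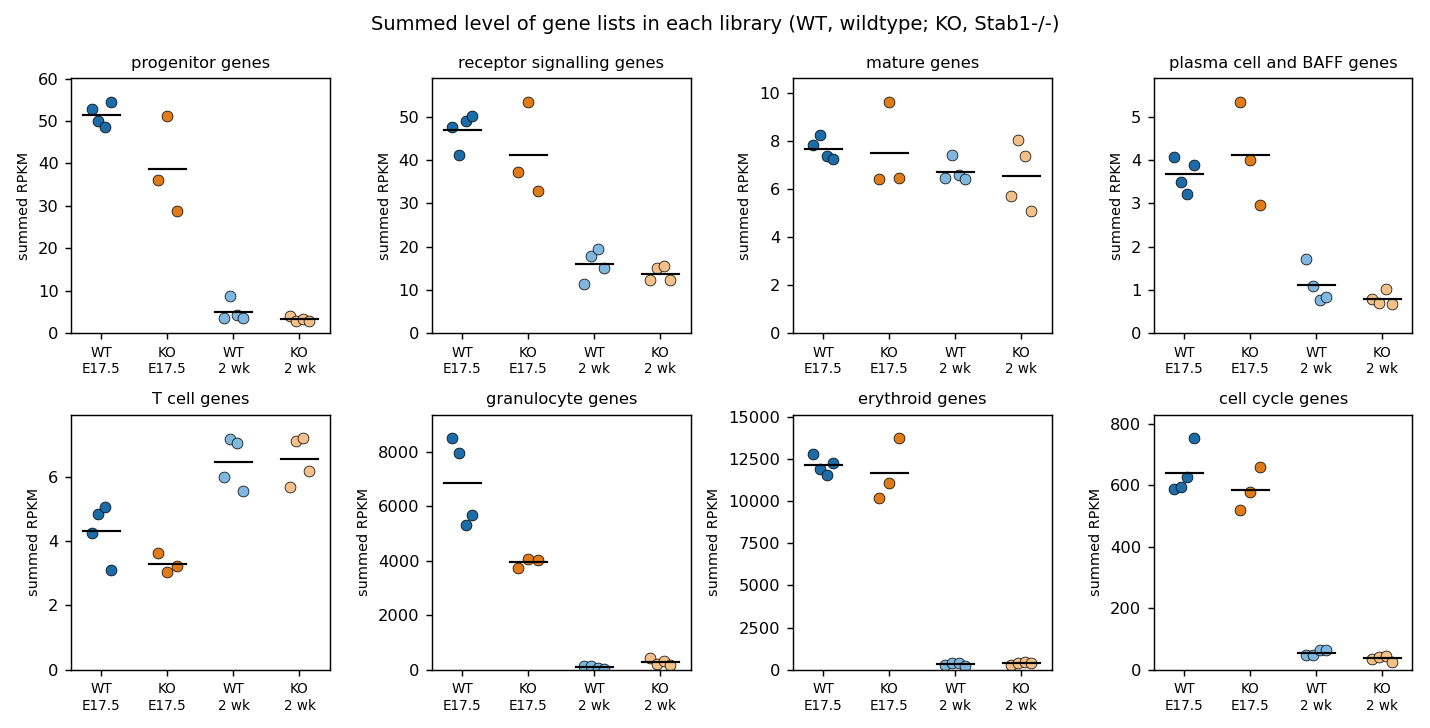
Summed RPKM of the 4 groups of B lineage genes and of T cell, granulocyte, erythroid and cell cycle genes, with 1 point per library and a line at the mean of each group, on axes that start at 0. The progenitor sums of 2 of the 3 Stab1-/- E17.5 libraries, but not of replicate 2, lie under those of the 4 wildtype libraries.

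The comparison of Stab1-/- with wildtype livers at E17.5 addressed whether B cell production before birth differs when Clever-1 is lacking. None of the 26 tested genes was called by edgeR, against 0.366% of all genes tested (0.194% higher and 0.172% lower), and DESeq2 and limma also called none. At an unadjusted p under 0.05 there were 5 genes, Igll1, Il7r, Prdm1, Spib and Vpreb1, or 5 of 26 against 12.9% of all genes. The median log2 fold change was -0.10 over the 26 genes and 0.00 over all. Mean RPKM was lower in Stab1-/- livers for 25 of the 34 genes, against 59.8% of all genes with a read at this stage. All 3 Stab1-/- libraries lay below all 4 wildtype libraries for 5 genes, Vpreb1, Vpreb2, Rag2, Il7r and Spib (7.2% of all genes), and above them for none (2.74%).

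Vpreb1 gave 62, 81 and 48 reads in the 3 Stab1-/- livers at E17.5, each under the lowest wildtype value of 89, and its level was 7.84 ± 2.09 RPKM against 10.8 to 14.3 RPKM in wildtype (log2 fold change -0.55 ± 0.21, unadjusted p = 0.0241, adjusted p = 0.318). Igll1 gave 67, 119 and 64 reads (-0.52 ± 0.23, adjusted p = 0.374), so that Stab1-/- replicate 2 lay within the wildtype range and replicates 1 and 3 under it. Vpreb2 gave 3, 2 and 4 reads against 6 to 15 in wildtype. Vpreb3 did not share this pattern, with 66, 91 and 45 reads against 64 to 87 in wildtype (-0.05 ± 0.23). Thus the genes of the surrogate light chain were at a lower mean level, without a call for any of them.

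Neither recombinase gene was called between the genotypes. Rag1 gave 206, 278 and 223 reads in Stab1-/- livers (-0.01 ± 0.14), within the wildtype range for 2 of the 3 livers. Rag2 gave 26, 37 and 34 reads, all below the wildtype minimum of 41 (-0.33 ± 0.20, adjusted p = 0.514). Dntt gave 1 read in 1 of the 3 libraries.

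Il7r gave 53, 64 and 38 reads in Stab1-/- livers at E17.5 (-0.50 ± 0.21, adjusted p = 0.361), all below the wildtype minimum of 69. Ebf1 gave 40, 57 and 24 reads (0.05 ± 0.28), Pax5 15, 26 and 9 reads (-0.35 ± 0.41), and Lef1 75, 73 and 46 reads (0.08 ± 0.25). These 3 transcription factor genes overlapped between the genotypes, and replicate 3 was the lowest Stab1-/- library for each.

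Of the receptor signalling genes, Spib gave 59, 94 and 54 reads (-0.52 ± 0.20, adjusted p = 0.342), all below the wildtype minimum of 97. Cd79a gave 102, 172 and 73 reads (-0.19 ± 0.26) and Cd79b 112, 164 and 112 reads (-0.11 ± 0.18). For both chains replicate 2 was above the highest wildtype library and the other 2 replicates were below the lowest one. Pou2af1 followed the same order with 101, 175 and 84 reads (-0.10 ± 0.24). Replicates 1 and 3, in which Igll1 and the summed progenitor genes (36.1 and 28.9 RPKM, against 51.3 in replicate 2) were also low, are the Stab1-/- libraries with intestinal transcripts (Cdx2 at 253 and 19 reads, against 1 in replicate 2), and the part of these transcripts in the low values was not tested. Btk gave 229, 303 and 236 reads (-0.05 ± 0.13), Blnk 54, 47 and 27 (0.24 ± 0.28), Blk 12, 33 and 13 (0.03 ± 0.41), Fcrla 20, 31 and 12 (-0.59 ± 0.33) and Bank1 101, 74 and 110 (0.13 ± 0.16). All 5 of these genes overlapped between the genotypes.

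In the mature group Ms4a1 gave 2, 9 and 4 reads, Cr2 3, 2 and 5, Fcer2a 2, 2 and 3, and Cxcr5 5, 5 and 0 in Stab1-/- livers, all too few for the test. Cd22 gave 43, 57 and 38 reads (-0.20 ± 0.23), Cd72 28, 53 and 17 (-0.02 ± 0.36), Tnfrsf13c 24, 28 and 37 (0.06 ± 0.23) and Bach2 182, 251 and 205 (0.27 ± 0.13, adjusted p = 0.412). All of them overlapped with wildtype. Irf4 gave 42, 65 and 49 reads (-0.25 ± 0.21), Tnfrsf13b 6, 12 and 7 (-0.17 ± 0.38) and Tnfsf13b 13, 13 and 10 (-0.14 ± 0.31), also with overlap. Igj gave 0 to 2 reads, and Tnfrsf17 gave 1 read in replicate 3.

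Prdm1 had the largest difference of any B lineage gene, and it rested on 1 library. Stab1-/- replicate 1 gave 163 reads, whereas replicates 2 and 3 gave 18 and 21 reads and the wildtype libraries 11 to 22. The log2 fold change was 2.17 ± 0.70 (adjusted p = 0.254) with this library and 0.43 ± 0.33 (adjusted p = 0.755) without it. Blimp-1 is also made outside the B lineage, in fetal intestinal epithelium and skin among other tissues. A list of 12 intestinal genes, chosen after these values were seen, summed to 404 RPKM in Stab1-/- replicate 1 and to 26.5 and 50.4 RPKM in replicates 2 and 3, against 32.1 to 39.2 RPKM in wildtype. The intestinal factor Cdx2 gave 253 reads in replicate 1, 19 in replicate 3 and 0 or 1 in the other 5 E17.5 libraries, and at this stage the gut peptide genes Guca2a and Sct gave reads in Stab1-/- replicates 1 and 3 only. Whether these transcripts account for the Prdm1 reads was not tested. Without Stab1-/- replicate 1 the number of B lineage genes called at E17.5 was again 0.

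**Figure D4:**
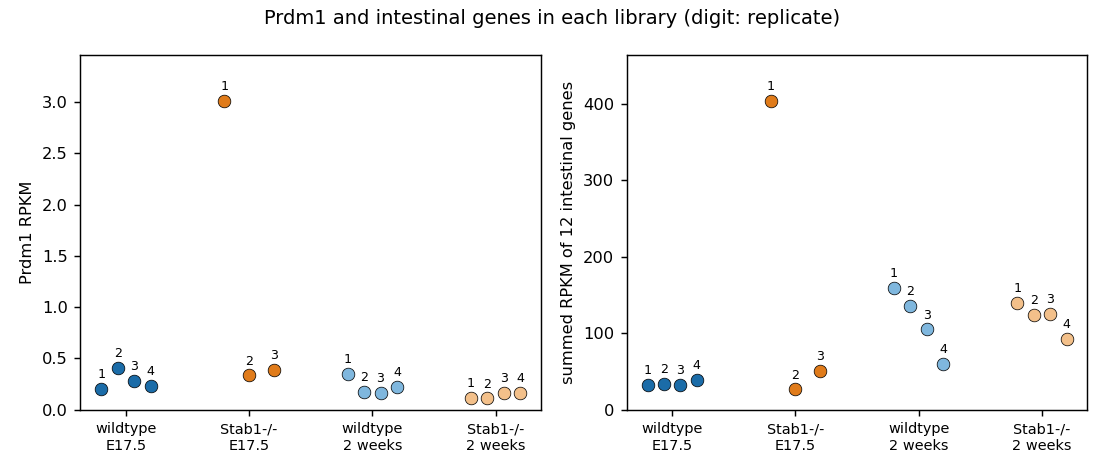
RPKM of Prdm1 (left) and summed RPKM of 12 intestinal genes (right) in each library, with the replicate number beside each point, on axes that start at 0. Replicate 1 of the Stab1-/- E17.5 group stands above every other library in both panels.

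Other cell lists moved at E17.5 beside the B lineage genes. The 10 granulocyte genes summed to 3744 to 4065 RPKM in Stab1-/- and 5302 to 8503 RPKM in wildtype livers, without overlap, although none of the 10 was called. The 8 NK cell genes summed to 4.16 to 6.75 RPKM against 6.84 to 10.5 RPKM, also without overlap and without a call among the 2 genes tested. The summed progenitor genes were at 28.9 to 51.3 RPKM in Stab1-/- and 48.5 to 54.6 RPKM in wildtype livers, which overlapped. The 10 cell cycle genes (519 to 658 against 586 to 752 RPKM) and the 11 erythroid genes (10168 to 13718 against 11538 to 12764 RPKM) also overlapped. The part of the granulocyte and NK cell differences in the B lineage values, Il7r among them, was not tested.

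At 2 weeks the same comparison addressed B lineage transcripts in the postnatal liver. None of the 16 tested genes was called by edgeR, against 2.67% of all genes tested (0.936% higher and 1.74% lower), and DESeq2 and limma also called none. Blnk and Bach2 had an unadjusted p under 0.05, or 2 of 16 genes against 23.4% of all genes. The median log2 fold change was -0.32 over the 16 genes and -0.01 over all. Mean RPKM was lower in Stab1-/- livers for 25 of the 34 genes, against 39.7% of all genes with a read. All 4 Stab1-/- libraries lay below all 4 wildtype libraries for Dntt, Ebf1 and Prdm1 (3.51% of all genes), and above them for no gene (8.1%).

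Dntt gave 5, 1, 3 and 1 reads in the 4 Stab1-/- livers against 10, 11, 6 and 6 in wildtype. Ebf1 gave 3, 2, 3 and 3 reads against 5, 10, 7 and 6. Prdm1 gave 6, 6, 8 and 8 reads against 19, 9, 9 and 12. The gap between the genotypes was 1 or 2 reads for each of these genes, and none had enough reads for the test. In the fit without the filter on low reads the adjusted p for Dntt was 0.0919.

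Of the other progenitor genes, only Il7r had enough reads for the test, with 16, 17, 9 and 15 reads in Stab1-/- livers (-0.20 ± 0.39), inside the wildtype range of 6 to 27. Vpreb1 gave 2 to 4 reads, Igll1 2 to 5, Vpreb3 4 to 9, Rag1 2 to 13, Pax5 2 to 6 and Lef1 3 to 8. Rag2 and Vpreb2 gave at most 1 read each. All of them overlapped with wildtype, and a difference between the genotypes was not detectable for them at this depth.

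Blnk gave 13, 22, 19 and 13 reads in Stab1-/- livers, of which 3 lay below the wildtype minimum of 20 (-0.78 ± 0.26, adjusted p = 0.108). Bach2 gave 99, 148, 111 and 103 reads against 130 to 154 (-0.36 ± 0.14, adjusted p = 0.154), with replicate 2 inside the wildtype range. Over 16 alternatives the adjusted p ranged from 0.0643 to 0.274 for Blnk and from 0.0787 to 0.362 for Bach2. Both genes were thus lower on average without being called.

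The receptor chains overlapped between the genotypes, with 24, 39, 46 and 27 reads of Cd79a (-0.48 ± 0.30) and 45, 55, 42 and 41 reads of Cd79b (-0.17 ± 0.20) in Stab1-/- livers. Blk gave 15, 11, 19 and 6 reads (-0.42 ± 0.37), Btk 25, 38, 32 and 29 (-0.26 ± 0.20), Pou2af1 16, 23, 27 and 17 (-0.48 ± 0.32), Spib 42, 35, 24 and 36 (-0.37 ± 0.28) and Fcrla 10, 25, 22 and 17 (-0.31 ± 0.32). Only Bank1 in this group had a higher mean, with 53, 64, 64 and 50 reads (0.11 ± 0.17). All 8 genes overlapped between the genotypes, and none passed the test.

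No mature gene passed the test at 2 weeks either. Ms4a1 gave 20, 46, 33 and 16 reads in Stab1-/- livers (0.03 ± 0.29), on both sides of the wildtype range of 24 to 34. Cr2 gave 11, 16, 19 and 10 reads (0.11 ± 0.44), Cd22 30, 46, 38 and 30 (-0.33 ± 0.21) and Cd72 28, 28, 28 and 21 (-0.14 ± 0.23). Tnfrsf13c gave 5 to 12 reads, Fcer2a 4 to 10 and Cxcr5 5 to 7. Irf4 gave 14, 11, 8 and 8 reads (-0.60 ± 0.28, adjusted p = 0.216), Tnfrsf13b 0 or 1, Tnfsf13b 1 to 4, Igj 3 to 9 and Tnfrsf17 no read. The Igj reads overlapped with the 1 to 7 reads of wildtype livers.

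Among other lists at 2 weeks, 3 of 10 cell cycle genes, Top2a, Ccna2 and Kif11, were lower in Stab1-/- livers, and the list summed to 26 to 44.2 RPKM against 46.4 to 64.3 RPKM in wildtype, without overlap. Of the 8 sinusoidal endothelium genes Kdr was lower, and it was also called in the interaction of genotype and stage. The granulocyte genes summed to 191 to 423 RPKM against 32.2 to 149 RPKM, the opposite of E17.5, with none of the 7 tested genes called at 2 weeks, and 3 of the 10 (S100a8, S100a9 and Camp) were called in the interaction of genotype and stage. The T cell genes overlapped (5.69 to 7.19 against 5.56 to 7.18 RPKM). The summed progenitor genes were at 2.79 to 3.97 RPKM in Stab1-/- and 3.57 to 8.79 RPKM in wildtype livers, with overlap. The part of these lists in the B lineage values was not tested.

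**Figure D5:**
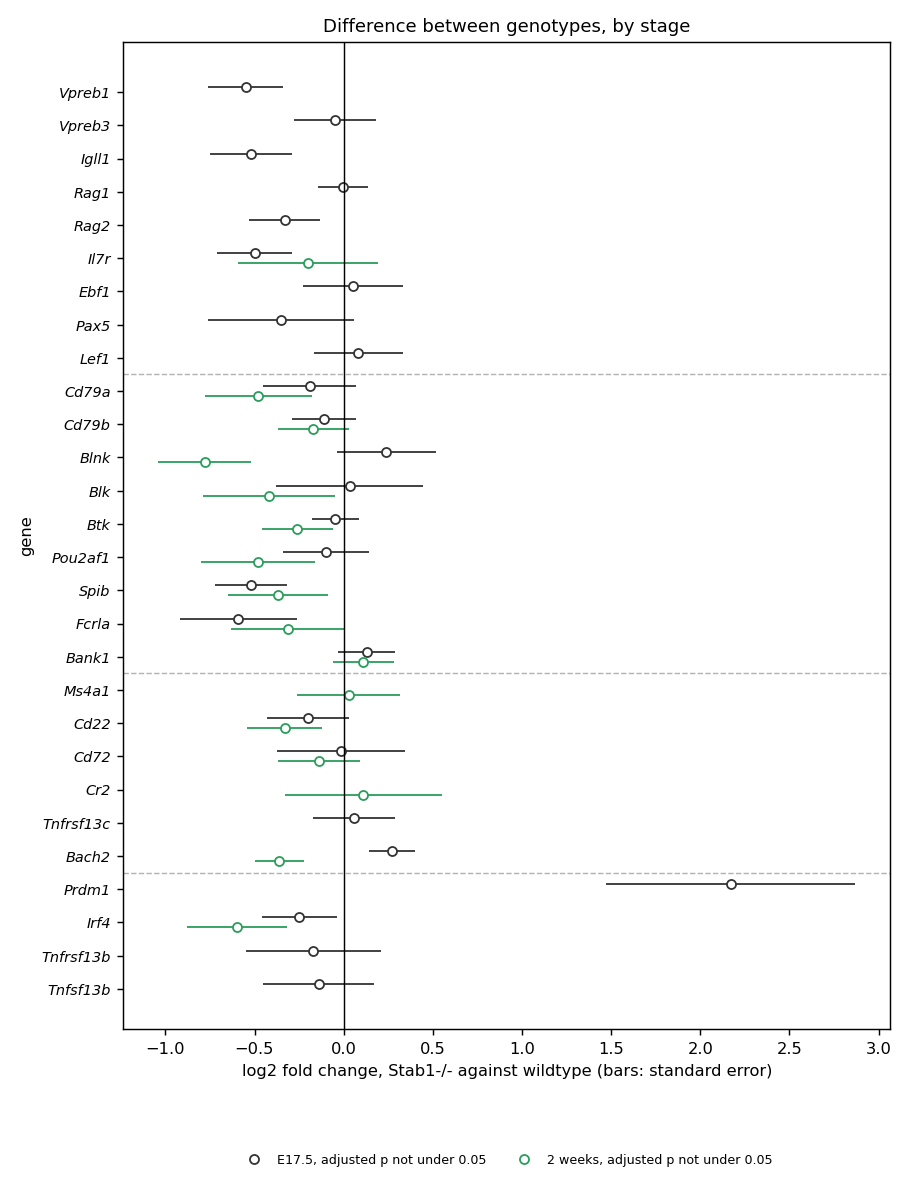
Log2 fold change of Stab1-/- against wildtype for each gene with enough reads, at E17.5 (black) and at 2 weeks (green), with the standard error as a bar. No point has an adjusted p under 0.05, and Prdm1 at E17.5, at 2.17, stands apart from the others.

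Stab1-/- livers were then compared between the stages. Of 25 tested genes, 19 were lower and 2 were higher at 2 weeks, against 72.5% of all genes called (35.7% higher and 36.8% lower). Progenitor genes were lower for 8 of 8 tested, receptor signalling genes for 7 of 9, mature genes for 2 of 6 with 2 higher, and plasma cell and BAFF genes for 2 of 2. All 2-week libraries lay below all E17.5 libraries for 23 of 34 genes (35.5% of all genes) and above them for 6, Dntt, Ms4a1, Cr2, Fcer2a, Cxcr5 and Igj (21.6%). The genes that rose were Ms4a1 (2.77 ± 0.51) and Cr2 (2.32 ± 0.43), and among those that fell were Rag2 (-4.94 ± 0.47), Rag1 (-4.66 ± 0.30), Vpreb1 (-4.19 ± 0.35) and Igll1 (-4.06 ± 0.37). Prdm1 was also lower (-2.90 ± 0.74), and its log2 fold change was -1.20 ± 0.35 (adjusted p = 0.00872) without the Stab1-/- replicate 1 with the high intestinal genes. Without that library 20 of the 21 genes were called, the exception being Bank1.

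Between the genotypes, the change with stage was next compared directly, as the genotype effect at E17.5 minus that at 2 weeks in 1 fit of all 15 libraries. None of 28 tested genes was called by edgeR, against 1.81% of all genes (1.01% higher and 0.799% lower), and DESeq2 and limma called none. At an unadjusted p under 0.05 there were 4 genes, Bach2, Blnk, Ebf1 and Prdm1, against 23.2% of all genes. The differences of the genotype effects were 0.60 ± 0.20 for Bach2 (adjusted p = 0.102), 0.99 ± 0.39 for Blnk (adjusted p = 0.148) and 1.36 ± 0.51 for Ebf1 (adjusted p = 0.128). For Prdm1 the difference was 2.93 ± 0.89 (adjusted p = 0.0811). It was 3.35 (adjusted p = 0.0454) when Stab1-/- E17.5 replicate 3 was left out, the only setting that called a B lineage gene, and 1.23 ± 0.47 (adjusted p = 0.21) when replicate 1 was left out. Blnk and Bach2 were called between the stages in Stab1-/- and not in wildtype livers, but this difference itself, given by the interaction, was not called.

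Beyond the 34 genes, a list of 52 further genes of B cell development, signalling and niche was read from the same fits. Between the stages in wildtype, 40 of 47 tested genes were called, 11 higher and 29 lower (85.1% against 71.9% of all genes tested), with a median log2 fold change of -0.61 against -0.01 over all. In Stab1-/- livers 36 of 46 were called, 10 higher and 26 lower (78.3% against 72.5% of all genes). The furthest falls in wildtype were those of Cd24a, a glycoprotein of B cell precursors and erythroid cells (-6.64 ± 0.24), Gfi1, a repressor of progenitors and granulocytes (-5.29 ± 0.40), Bcl11a, a factor of early lymphoid and erythroid cells (-5.24 ± 0.19), and Ikzf1, the lymphoid factor Ikaros (-3.84 ± 0.14). The largest rises were those of Sdc1, which encodes the plasma cell marker CD138 and is also a hepatocyte proteoglycan (2.85 ± 0.13), Fcgr2b, an inhibitory Fc receptor that liver sinusoidal endothelium also carries (2.49 ± 0.11), Cd74, the MHC class II invariant chain (2.39 ± 0.16), and Cxcl12, a stromal chemokine that retains B cell precursors (2.04 ± 0.10). Several of these genes are thus not specific to the B lineage.

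Between the genotypes 1 gene of the 52 was called at each stage. At 2 weeks Sdc1 was lower in Stab1-/- livers, with 64.4, 76.9, 68.4 and 65.6 RPKM against 87.1, 110, 79.9 and 109 RPKM in wildtype (-0.58 ± 0.13, adjusted p = 0.0347), without overlap. This was 1 of 41 tested genes, or 2.44%, against 2.67% of all genes. At E17.5 Sp140, a nuclear body protein of lymphocytes and myeloid cells, was lower, with 25, 17 and 24 reads against 97, 58, 68 and 54 (-1.57 ± 0.27, adjusted p = 0.0474), also without overlap and 1 of 46 tested genes, or 2.17%, against 0.366% of all genes. The call of Sdc1 was lost on leaving out any 1 of the 4 Stab1-/- libraries or wildtype replicate 4, and that of Sp140 on leaving out any 1 of the 3 Stab1-/- libraries or wildtype replicate 1, 2 or 3. Over all alternatives the adjusted p ranged from 0.0017 to 0.115 for Sdc1 and from 0.000701 to 0.165 for Sp140.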

How the data were processed

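RNA-seq libraries of 15 mouse livers, prepared and sequenced at BGI, were analysed from 1 deposited table. For each library the authors deposited uniquely mapped read counts per gene, the RPKM made from these counts with the listed gene length, and the percent of the gene model covered. A dash stood for no read. The aligner, genome build, gene annotation and strandedness are not given in the sources used here, so reads of overlapping genes cannot be told apart. RPKM recomputed from counts, lengths and totals differed from the deposited RPKM by at most 7.68e-12 percent.

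Counts were tested with edgeR 4.0.16 (R 4.3.3; TMM factors, quasi-likelihood test, two-sided), keeping genes that passed filterByExpr (minimum count 10, minimum total 15), with Benjamini-Hochberg adjustment over all genes kept. Each comparison was fitted on its own libraries, and the interaction on all 15. Levels are mean ± SD of RPKM, and the floor was 3 reads per library. Alternatives were DESeq2 1.42.0, limma 3.58.1 on log2(RPKM + 0.1) and log2(RPKM + 1), median-of-ratios factors, library totals, no filter, 1 fit of all libraries, a replicate block, and leaving out each library. The scripts were tested on simulated data. No 2 libraries of a group agreed within sampling noise (smallest chi-square per degree of freedom 5.68).

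The genes and lists were chosen with earlier results of these data known. All genes with a mean of at least 10 reads in a group are given by library, and the others by their range. Of the 52 further genes, those called between genotypes and the 4 largest changes in each direction between stages in wildtype are named. Counting intervals and floors cover counting error only.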

Additional observations from a re-analysis of the deposited data

Results flagged for a closer look

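The Il7r level of Stab1-/- replicate 3 at 2 weeks, 0.289 RPKM from 9 reads, lay apart from the other 3 libraries of its group, of which the nearest was at 0.477 RPKM. It was the only such library among 70 groups of 4 that were examined, and chance gives about 1 in 20 groups.

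The genotype effect on Sdc1 differed between the stages by 0.68 ± 0.16 on the log2 scale (E17.5 minus 2 weeks, edgeR interaction term, adjusted p = 0.0453). Its E17.5 level was 17.3 ± 0.908 RPKM (wildtype) and 18.3 ± 1.98 RPKM (Stab1-/-), and its 2-week level was 96.6 ± 15.3 RPKM (wildtype) and 68.8 ± 5.64 RPKM (Stab1-/-). The difference was positive in all 22 alternatives, from 0.55 to 0.76, and was called in 7 of them, with adjusted p from 0.00326 to 0.123.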

How the results depend on the processing

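The 0 calls between the genotypes among the B lineage genes held under every alternative at both stages (0 to 0 over left-out libraries). Leaving out single libraries gave 18 to 19 calls between the stages in wildtype and 19 to 22 in Stab1-/- livers. For the interaction it gave 0 to 1, the 1 being Prdm1 without Stab1-/- E17.5 replicate 3. Other methods moved the stage counts further. The 18 calls in wildtype became 24 in both limma fits, 23 under DESeq2 and without the filter, and 21 in 1 fit of all libraries. The 21 calls in Stab1-/- livers became 27 and 25 in limma with pseudocounts of 0.1 and 1. They became 26 without the filter, 24 in 1 fit of all libraries and 23 under DESeq2. No called result reversed. Of the results under an alternative for single genes that were called or had an unadjusted p under 0.05, 796 kept their direction and side of the threshold, 54 dropped out of the calls and 1 entered them. Outside these, Bach2, tested but not called in the main fit, entered the calls between stages in wildtype under library totals and both limma fits. Genes with too few reads for the main test also entered. Under DESeq2, without the filter and in both limma fits these were Dntt, Fcer2a, Tnfrsf13b, Tnfsf13b and Vpreb2 in wildtype. Under the same settings Fcer2a, Pax5, Tnfrsf13b and Tnfsf13b entered in Stab1-/- livers, and Vpreb2 and Igj under fewer of them. Cr2 entered in wildtype under DESeq2, without the filter and in 1 fit of all libraries.

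For the 52 further genes, leaving out single libraries gave 40 to 41 calls between stages in wildtype, 35 to 36 in Stab1-/- livers, 0 to 1 between genotypes at 2 weeks, 0 to 1 at E17.5 and 0 to 2 for the interaction. Both limma fits and library totals gave 0 at 2 weeks. Limma with a pseudocount of 1, the fit of all 15 libraries and the replicate block gave 0 at E17.5. For the interaction DESeq2 gave 2, the replicate block 3, and no filter and limma with a pseudocount of 0.1 gave 0. The cause of these differences was not tested.

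Libraries share replicate numbers across groups, but not every same-numbered pair deviated together. The r of these pairs ran from -0.181 to -0.000483 at E17.5, 0.0219 to 0.202 at 2 weeks, 0.00689 to 0.222 across stages in wildtype and -0.168 to 0.105 in Stab1-/- livers. Their mean was above that of the other pairs at 2 weeks (0.139 against -0.0468) and across stages in wildtype (0.119 against -0.0395). It was below it at E17.5 (-0.103 against 0.0334) and across stages in Stab1-/- livers (-0.0276 against 0.00851). The numbers were not taken as a pairing. With the replicate block, 18 B lineage genes were called between stages in wildtype and 20 in Stab1-/- livers. Depth limits most genes at 2 weeks, where only 16 of 34 had enough reads.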
